A study of Mus musculus with 12 samples.

Results

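The genes described here are 48 genes of mitosis and the G2/M transition, a list given by name, with no threshold on measured values. All 48 were found by symbol or Ensembl ID among the 38924 gene IDs counted, and all 48 were among the 13811 genes with enough reads to be tested. The libraries hold RNA of splenic CD4+ T cells from C57BL/6 mice, either wild type (WT) or STINGgt/gt (Goldenticket mice, which lack functional STING, the adaptor of the cytosolic DNA-sensing pathway). The agents compared were the solvent DMSO and the cell-permeable STING agonist CMA (10-carboxymethyl-9-acridanone), each left on the cells for 16 h. Sorted as naïve cells, all groups had first been activated through CD3 and CD28 (2 days) and had then spent 1 day free of that stimulus. The 4 groups (WT DMSO, WT CMA, STINGgt/gt DMSO and STINGgt/gt CMA) have 3 libraries each, the mice were 8 to 12 weeks old, and no label ties a library to an animal or says that animals were pooled. The p-values therefore measure the spread between these libraries.

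Entry into mitosis is driven by Cdk1 bound to A- and B-type cyclins, which the Cdc25 phosphatases switch on. Polo-like and Aurora kinases then build the spindle, the checkpoint proteins hold back the anaphase-promoting complex until every kinetochore is attached, and the central spindle directs the final division of the cell. Transcripts of most of these proteins are made late in the cell cycle and are scarce in resting cells, so T cells that were recently activated and divide hold many of them. In bulk RNA, fewer dividing cells and less of a transcript per cell cannot be told apart.

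The 48 genes were well expressed in all groups. Per kilobase of exon, the median member stood at 24.0 CPM (counts scaled to library size, TMM) in WT DMSO, against 5.54 over the 13680 tested genes with a known length, and 46 of 48 members were above that median. Levels per kilobase ran from 145 CPM for Top2a, the topoisomerase that untangles sister chromatids, and 79.1 for the proliferation marker Mki67 down to 3.33 for Cdc25c. Cyclin A2 (Ccna2) at 58.0, Aurora kinase B (Aurkb) at 53.2 and the ubiquitin-conjugating enzyme Ube2c at 53.0 followed Mki67. Total gene reads per library were 27414450 to 43784910. T cell markers were abundant, with the summed level of 8 of them at 2842 to 2853 CPM in WT CMA and at 3078 to 3266 in the other 9 libraries. With CMA in WT, 4 of these 8 were called lower and 1 higher, where 37.4% and 33.0% of all tested genes were. Transcripts used as markers of other cell types were also detected, and their levels moved with the groups. The 6 B cell markers summed to 253 to 266 CPM in WT DMSO, 350 to 378 in WT CMA and 114 to 122 in STINGgt/gt. The 6 CD8 and NK cell markers summed to 94.5 to 111 CPM in WT DMSO, 52.3 to 54.7 in WT CMA and 32.2 to 35.1 in STINGgt/gt. Of the 7 myeloid markers, 6 were tested, and these summed to 48.6 to 52.6, 59.9 to 63.2 and 34.5 to 38.8 CPM in the same order. Cst3 made up most of this sum and was the 1 myeloid marker called higher with CMA in WT, while 3 (Lyz2, Itgam and Fcer1g) were called lower and the median log2 fold change of the 6 was -0.41. Adgre1 was too low to be tested. Reads outside genes were 4.86% to 5.47% of entries in WT DMSO, 6.79% to 7.16% in WT CMA and 5.98% to 6.54% in STINGgt/gt, and non-unique alignments were 29.6% to 30.3%, 27.8% to 27.9% and 28.1% to 29.0%, so both WT groups stood apart from each other. The part of the marker transcripts and of these read shares in the results below was not tested.

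The first question was whether CMA changed the mitotic genes in WT T cells. With CMA, 30 of the 48 genes (62.5%) were lower and 7 (14.6%) higher than with DMSO, and 11 did not pass the test (edgeR quasi-likelihood test, Benjamini-Hochberg adjusted p under 0.05 over all tested genes). Among all tested genes 37.4% were lower and 33.0% higher, and the counts by role group below stand beside these same shares. The changes were small. The median log2 fold change of the 48 genes was -0.25, against -0.04 over all genes, and the range ran from -0.75 for Ckap2 to 0.83 for Pttg1. No member reached a 2-fold change, which 7.68% of all genes did downwards and 9.32% upwards. The median size of the change, whatever its sign, was 0.263 for members and 0.391 for all genes, and 9 members were above the latter. Every WT CMA library was below every WT DMSO library for 28 members and above for 7, where 37.6% and 33.5% of all genes did so.

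**Figure D1:**
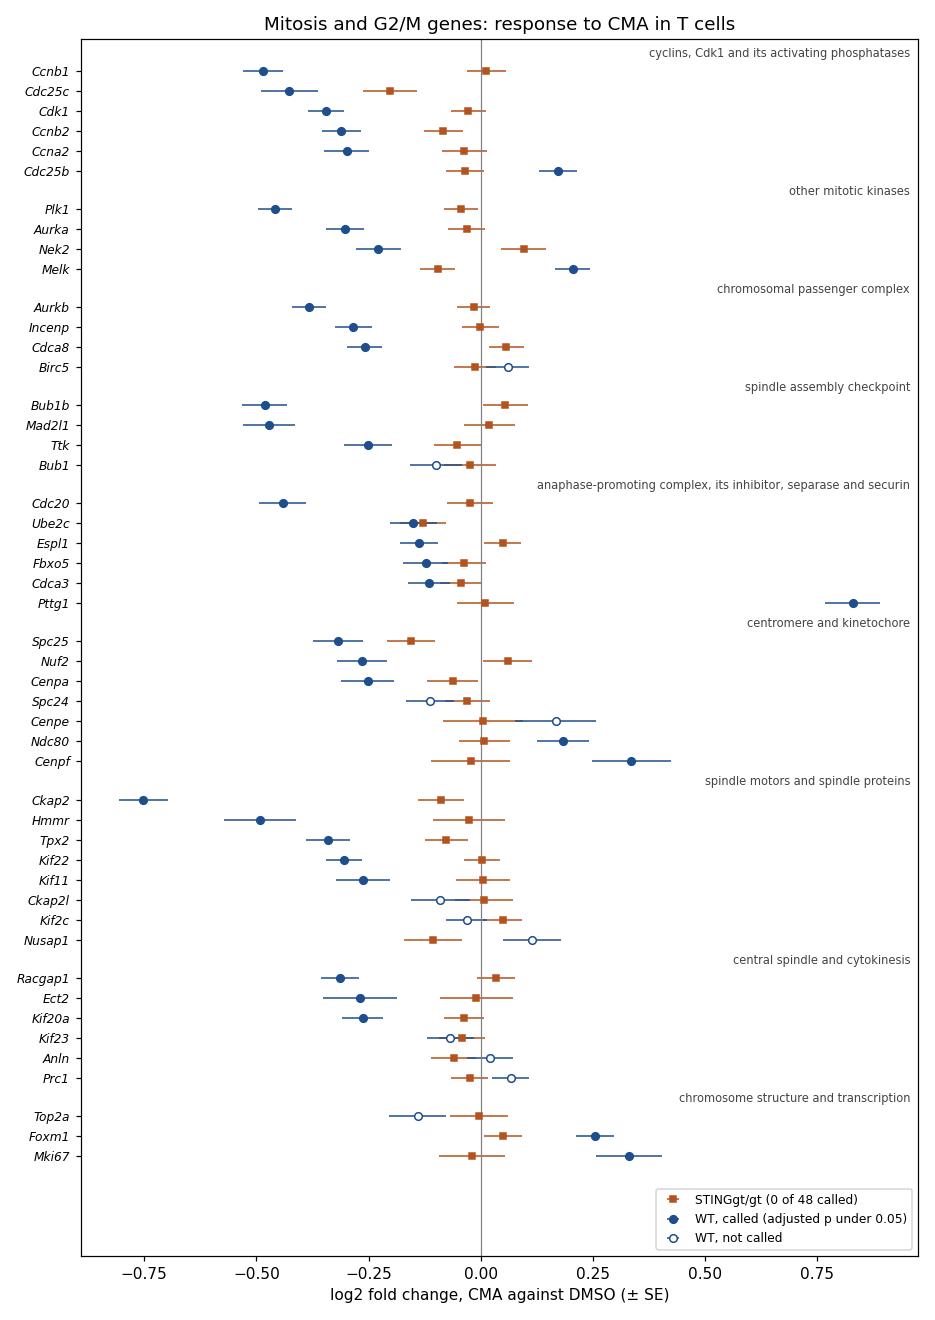
The log2 fold change with CMA against DMSO (x axis) for each of the 48 genes (y axis, grouped by role), as circles for WT (filled where called) and squares for STINGgt/gt, with bars of ± 1 SE. In WT 30 genes lie to the left and 7 to the right as called, while the squares stay between -0.20 and 0.10.

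Of the Cdk1 module, 5 of 6 genes fell. Cyclin B1 (Ccnb1), the main partner of Cdk1 at mitotic entry, was at 101, 101 and 110 CPM in WT DMSO and at 74.0, 72.2 and 76.5 in WT CMA. The STINGgt/gt libraries held 110, 107 and 107 CPM with DMSO and 110, 109 and 107 after CMA. The 3 WT CMA libraries thus stood below the other 9. The log2 fold change in WT was -0.49 (SE 0.045, adjusted p = 5.76e-08, edgeR). Ccnb2 (log2 fold change -0.31), Ccna2 (-0.30), the kinase Cdk1 itself (-0.35) and the phosphatase Cdc25c (-0.43) fell as well. Pseudogene copies of Ccnb1 and Ccnb2 are annotated, so reads that fit both were not counted for either. The exception was Cdc25b, the phosphatase that starts the activation of Cdk1 before mitosis. It was at 107, 112 and 110 CPM in WT DMSO, 123, 120 and 128 in WT CMA, 82.8, 88.4 and 88.6 in STINGgt/gt DMSO and 84.9, 83.9 and 84.9 in STINGgt/gt CMA. No WT library overlapped a STINGgt/gt library, and the WT CMA libraries were the highest (log2 fold change 0.17, SE 0.042, adjusted p = 0.00159).

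Among the other mitotic kinases, 3 of 4 fell. Plk1, which drives centrosome maturation and spindle assembly, was at 106, 108 and 109 CPM in WT DMSO and 77.6, 78.5 and 78.9 in WT CMA. With STINGgt/gt cells the values were 110, 112 and 115 CPM for DMSO and 108, 107 and 112 for CMA. The WT CMA libraries were apart from all others (log2 fold change -0.46, SE 0.038, adjusted p = 1.79e-08). Aurora kinase A (Aurka, log2 fold change -0.30) and the centrosomal kinase Nek2 (-0.23) fell less. Melk, a kinase of proliferating cells, went the other way. Its libraries read 56.3, 55.4 and 57.2 CPM in WT DMSO, 64.7, 64.9 and 65.2 in WT CMA, 65.7, 65.8 and 63.0 in STINGgt/gt DMSO and 61.2, 61.0 and 59.7 in STINGgt/gt CMA. The WT DMSO libraries were the lowest of the 12, and the change in WT was 0.20 on the log2 scale (SE 0.039, adjusted p = 0.000187).

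The chromosomal passenger complex corrects wrong attachments between kinetochores and microtubules, and 3 of its 4 genes fell. Aurkb, its kinase, was at 152, 161 and 157 CPM in WT DMSO, 120, 120 and 120 in WT CMA, 170, 166 and 170 in STINGgt/gt DMSO and 167, 168 and 165 in STINGgt/gt CMA. There was no overlap between the WT groups, and the log2 fold change was -0.38 (SE 0.038, adjusted p = 1.3e-07). The scaffold Incenp and borealin (Cdca8) fell by 0.28 and 0.26 on the log2 scale. Survivin (Birc5), the complex's inhibitor-of-apoptosis family subunit, read 94.8, 108 and 102 CPM in WT DMSO and 108, 103 and 107 in WT CMA. Its WT groups overlapped (log2 fold change 0.06, SE 0.047, adjusted p = 0.271). In STINGgt/gt it lay between 99.2 and 103 CPM in all 6 libraries.

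Of the 4 spindle assembly checkpoint genes 3 fell. Bub1b encodes BubR1, a subunit of the complex that restrains the anaphase-promoting complex. It was at 177, 181 and 199 CPM in WT DMSO, 132, 126 and 141 in WT CMA, 198, 203 and 203 in STINGgt/gt DMSO and 204, 211 and 214 in STINGgt/gt CMA. The WT CMA libraries were well below all others (log2 fold change -0.48, SE 0.050, adjusted p = 2.77e-07). Its partner Mad2l1 fell by 0.47 and the kinase Ttk by 0.25 on the log2 scale. The kinase Bub1 read 165, 155 and 186 CPM in WT DMSO and 155, 153 and 164 in WT CMA, with overlap between the groups (log2 fold change -0.10, SE 0.058, adjusted p = 0.136). Its value ran from -0.16 to -0.01 over the alternatives. It was called lower in 2 of 21, with library-size scaling and without WT DMSO replicate 2. Its STINGgt/gt libraries lay between 174 and 190 CPM.

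**Figure D2:**
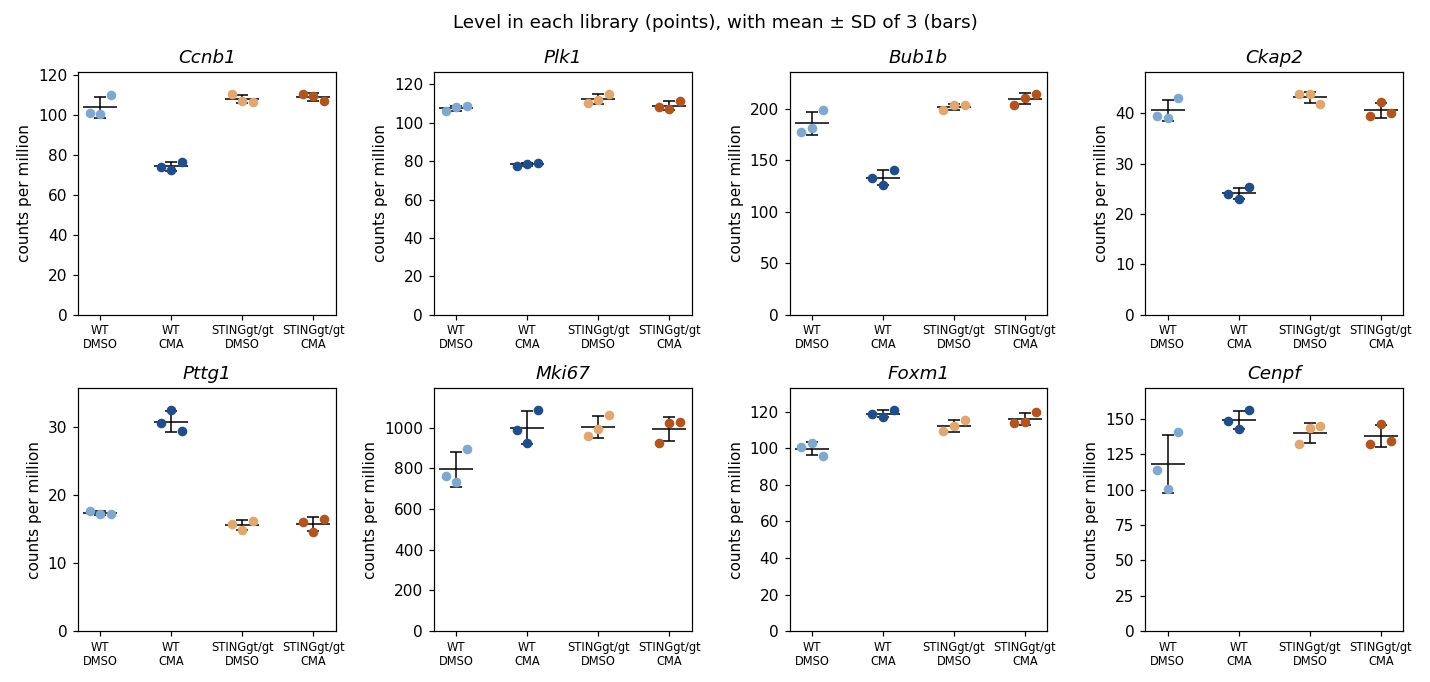
Level in CPM (y axis, starting at 0) of 8 of the genes in each of the 12 libraries (points, by group on the x axis), with the mean and SD of 3 as black bars. Ccnb1, Plk1, Bub1b and Ckap2 are lowest in the WT CMA libraries and Pttg1 is highest there, while Mki67, Foxm1 and Cenpf are lower in WT DMSO than in the other groups, apart from WT DMSO replicate 3 in Cenpf.

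The genes around the anaphase-promoting complex showed the widest spread. Securin (Pttg1), the protein that holds separase inactive until anaphase, had the largest rise of the 48. Its libraries read 17.6, 17.1 and 17.2 CPM in WT DMSO, 30.5, 32.4 and 29.3 in WT CMA, 15.7, 14.8 and 16.2 in STINGgt/gt DMSO and 16.1, 14.5 and 16.5 in STINGgt/gt CMA. All WT CMA libraries were above all 9 others (log2 fold change 0.83, SE 0.061, adjusted p = 3.73e-09). The other 5 genes were called lower. The coactivator Cdc20 fell by 0.44 on the log2 scale, while Ube2c (-0.15), separase (Espl1, -0.14), the inhibitor Fbxo5 (-0.12) and Cdca3 (-0.12) moved little. Cdca3 read 93.4, 105 and 100 CPM in WT DMSO and 89.6, 92.0 and 94.4 in WT CMA, so the groups overlapped (adjusted p = 0.0363). In STINGgt/gt its range was 89.2 to 95.8 CPM. Of 21 alternative analyses, Fbxo5 and Cdca3 each lost the call in 14, DESeq2 and the deposited log2 table among them, Ube2c in 5 and Espl1 in 3.

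Of the 7 centromere and kinetochore genes 2 were higher (28.6%), 3 lower (42.9%) and 2 not called. Among all tested genes 33.0% were higher and 37.4% lower, so these shares were near the background. Cenpf, a large kinetochore protein made in G2, read 113, 100 and 140 CPM in WT DMSO and 149, 143 and 156 in WT CMA. STINGgt/gt cells had 132, 143 and 145 CPM with DMSO, and 132, 147 and 134 after CMA. The WT groups did not overlap, although WT DMSO replicate 3 was close to the WT CMA libraries (log2 fold change 0.34, SE 0.088, adjusted p = 0.00282).

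The NDC80 complex, which joins kinetochores to microtubules, has all of its subunits among the members, and they were called in different directions. Ndc80 was at 58.2, 62.4 and 67.6 CPM in WT DMSO and 73.4, 67.0 and 73.6 in WT CMA, with STINGgt/gt between 66.6 and 72.6. The WT groups overlapped by 1 library (log2 fold change 0.18, SE 0.057, adjusted p = 0.00947). Nuf2 fell by 0.26 and Spc25 by 0.32 on the log2 scale. Spc24 read 36.3, 38.1 and 33.5 CPM in WT DMSO and 34.6, 32.9 and 32.0 in WT CMA, with overlap (log2 fold change -0.11, SE 0.053, adjusted p = 0.0701), and was at 41.6 to 44.1 CPM in STINGgt/gt. Of the centromere proteins, the histone variant Cenpa fell by 0.25 on the log2 scale, and the kinetochore motor Cenpe was not called (log2 fold change 0.17, SE 0.090, adjusted p = 0.11). Cenpe read 153, 133 and 191 CPM in WT DMSO and 180, 170 and 186 in WT CMA. WT DMSO replicate 3 was above all WT CMA libraries and the other DMSO libraries below them, and without that replicate the gene was called higher (log2 fold change 0.33, adjusted p = 5.12e-05). It was called in 5 of 21 alternative analyses.

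Of the 8 spindle motors and spindle proteins 5 fell and 3 were not called. Ckap2, a microtubule-associated protein of the spindle, had the largest fall of the 48. It was at 39.5, 39.1 and 43.1 CPM in WT DMSO, 24.0, 23.0 and 25.3 in WT CMA, 43.8, 43.8 and 41.9 in STINGgt/gt DMSO and 39.4, 42.2 and 40.1 in STINGgt/gt CMA. The WT CMA libraries were far below the other 9 (log2 fold change -0.75, SE 0.055, adjusted p = 2.74e-09). The spindle protein Hmmr (-0.49), the spindle assembly factor Tpx2 (-0.34) and the motors Kif22 (-0.31) and Kif11 (-0.26) fell less on the log2 scale. The depolymerising kinesin Kif2c read 67.7, 65.4 and 72.7 CPM in WT DMSO and 67.4, 64.8 and 69.4 in WT CMA. These groups overlapped throughout (log2 fold change -0.03, SE 0.046, adjusted p = 0.553), and the 6 STINGgt/gt libraries were higher at 79.4 to 84.1 CPM. Ckap2l, a relative of Ckap2, was not called (log2 fold change -0.09, adjusted p = 0.232), and neither was Nusap1 (0.11, adjusted p = 0.125).

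Of the 6 cytokinesis genes 3 were lower (50%, against 37.4% of all tested genes) and none higher (against 33.0%). The other 3 did not pass the test (edgeR). Racgap1, a subunit of the centralspindlin complex, was at 115, 121 and 127 CPM in WT DMSO, 97.9, 97.8 and 96.1 in WT CMA, 126, 128 and 128 in STINGgt/gt DMSO and 129, 132 and 130 in STINGgt/gt CMA. The WT CMA libraries lay below all others (log2 fold change -0.31, SE 0.042, adjusted p = 4.95e-06). Its centralspindlin partner, the motor Kif23, was not called (-0.07, adjusted p = 0.257). The motor Kif20a was called lower (-0.26). The exchange factor Ect2 read 110, 93.6 and 127 CPM in WT DMSO and 92.6, 88.7 and 94.1 in WT CMA, with overlap, and was called lower (log2 fold change -0.27, adjusted p = 0.0083). Without WT DMSO replicate 3 its value was -0.14 and the call was lost, as it was in 2 of 21 alternatives in all. Anillin (Anln), which organises the contractile ring, read 44.5, 45.7 and 48.7 CPM in WT DMSO and 46.9, 46.8 and 47.4 in WT CMA, so that the CMA libraries fell within the DMSO range (log2 fold change 0.02, SE 0.051, adjusted p = 0.74). STINGgt/gt libraries had 47.9 to 54.7 CPM of it. The microtubule bundler Prc1 was not called (log2 fold change 0.07, adjusted p = 0.16).

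The last role group, chromosome structure and transcription, was the sole one with more genes higher (2 of 3) than lower (0). It is small, and the role groups were set with earlier results of these data known. Mki67 was at 761, 733 and 894 CPM in WT DMSO, 991, 927 and 1087 in WT CMA, 959, 994 and 1065 in STINGgt/gt DMSO and 924, 1024 and 1028 in STINGgt/gt CMA. Its WT DMSO libraries were the lowest of the 12 and the other groups overlapped (log2 fold change with CMA in WT 0.33, SE 0.074, adjusted p = 0.000741). Foxm1 encodes a transcription factor that activates G2/M genes. It was at 101, 103 and 96.0 CPM in WT DMSO, 119, 117 and 121 in WT CMA, 109, 112 and 116 in STINGgt/gt DMSO and 114, 115 and 120 in STINGgt/gt CMA. The WT DMSO libraries were again the lowest (log2 fold change 0.26, SE 0.042, adjusted p = 4.9e-05). The annotation places exons of Foxm1 over those of Tex52 and Gm44596 on the same strand, and reads there cannot be told apart. Top2a read 1264, 1180 and 1470 CPM in WT DMSO and 1186, 1130 and 1234 in WT CMA, with overlap (log2 fold change -0.14, SE 0.064, adjusted p = 0.0602), and 1382 to 1502 in STINGgt/gt.

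**Figure D3:**
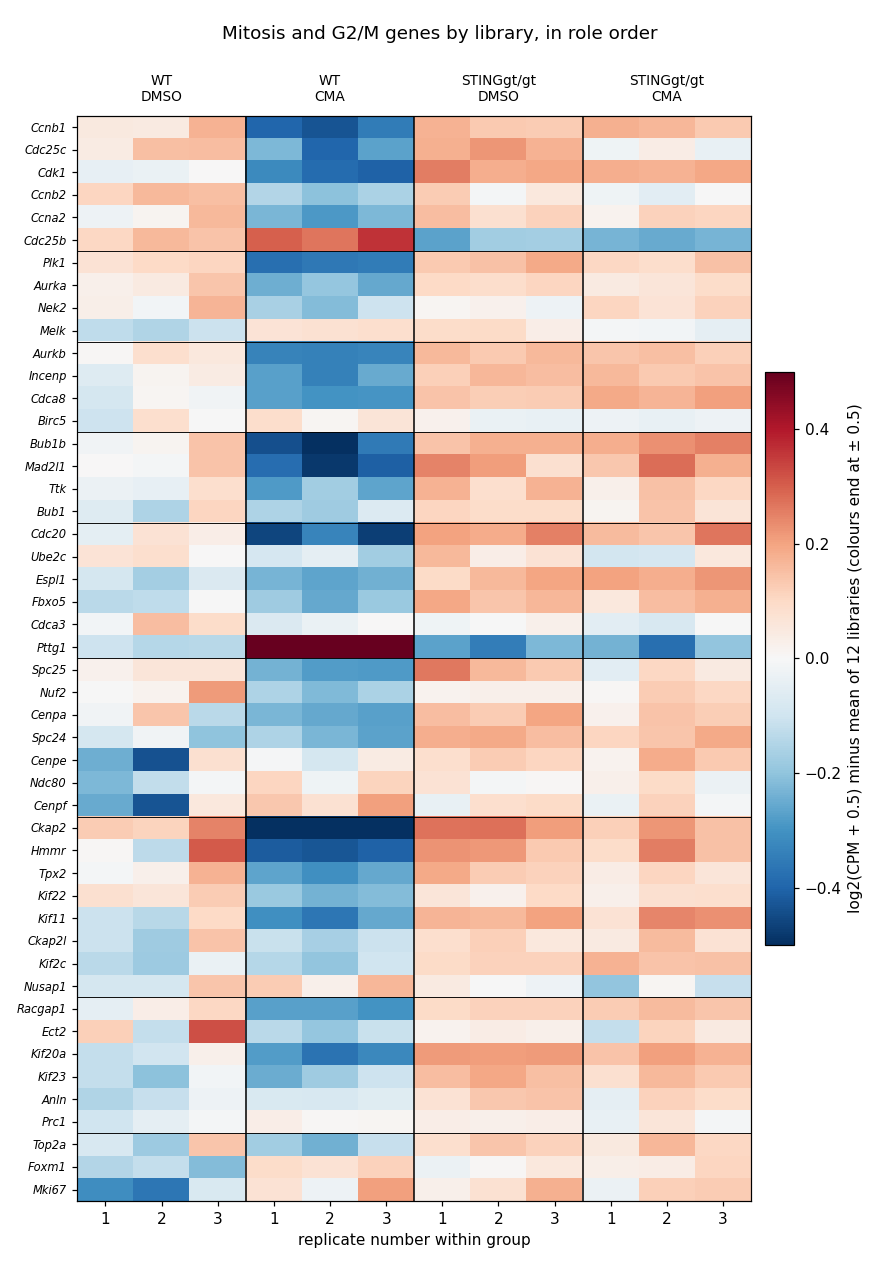
Each row is 1 of the 48 genes in role order and each column 1 of the 12 libraries, and the colour gives log2(CPM + 0.5) minus the gene's mean over the 12 libraries, blue for lower and red for higher. The WT CMA columns are blue for the most part, with Pttg1 and Cdc25b as red rows in them, and the third WT DMSO column is redder than its neighbours.

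Upstream sequences of members called lower and of members called higher were compared, because late cell cycle genes are known to share 2 kinds of promoter element. One is the CHR (cell cycle genes homology region), read here as TTTGAA, or with A in place of G as TTTAAA, on either strand, to which the DREAM complex binds in resting cells and B-Myb and FoxM1 complexes in dividing ones. The other is the CCAAT box, bound by NF-Y and searched as CCAAT on either strand. RefSeq promoters (GRCm38.p6, 250 bases before to 50 after the start) were matched by symbol for 40 of the 48 members. CHR letters were in 32 of them (80.0%), against 27.8% of all 27025 promoters. CCAAT was in 31 (77.5%), against 37.9%, and both were in 28 (70.0%), against 10.9%. All promoters include those of genes not tested here. Among the 9711 tested genes with a promoter, the shares were 18.7% for CHR, 39% for CCAAT and 7.6% for both. E2F letters (TTTCCCGC, also with GG, CG or GC at bases 4 and 5) were in 1 member, 2.5% against 2.32%. TTTAAA reads the same on both strands, and a TTTGAA match can share a base with a CCAAT match on the other strand. The start used by RefSeq lay within 50 bases of the start in the deposited table for 32 of the 40, and among those 32 each of CHR and CCAAT was found in 26.

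The 200 bases before the start are shown for 3 genes that fell (Plk1, Bub1b, Ckap2) and 3 that rose (Mki67, Cenpf, Cdc25b) with CMA in WT, each 5′ to 3′ on the gene's strand. Capitals mark the letters of either CHR form and of CCAAT, each on whichever strand it lies (a CCAAT box on the other strand reads ATTGG). They lie at chr7:122159235-122159434 (plus strand, Plk1), chr2:118598011-118598210 (plus, Bub1b), chr8:22185820-22186019 (minus, Ckap2), chr7:135716380-135716579 (minus, Mki67), chr1:189688087-189688286 (minus, Cenpf) and chr2:131186748-131186947 (plus, Cdc25b) of GRCm38.p6.
Plk1: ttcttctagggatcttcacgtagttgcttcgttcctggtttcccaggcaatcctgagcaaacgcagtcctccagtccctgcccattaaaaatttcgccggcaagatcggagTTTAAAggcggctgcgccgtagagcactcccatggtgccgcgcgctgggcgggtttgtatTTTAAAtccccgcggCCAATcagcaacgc
Bub1b: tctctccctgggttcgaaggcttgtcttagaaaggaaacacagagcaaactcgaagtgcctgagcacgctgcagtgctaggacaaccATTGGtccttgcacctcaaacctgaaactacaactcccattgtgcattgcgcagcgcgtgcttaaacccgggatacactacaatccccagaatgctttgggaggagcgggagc
Ckap2: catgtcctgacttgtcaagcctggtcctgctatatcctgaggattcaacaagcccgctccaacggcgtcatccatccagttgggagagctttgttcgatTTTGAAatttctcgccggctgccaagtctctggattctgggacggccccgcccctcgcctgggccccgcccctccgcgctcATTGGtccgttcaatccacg
Mki67: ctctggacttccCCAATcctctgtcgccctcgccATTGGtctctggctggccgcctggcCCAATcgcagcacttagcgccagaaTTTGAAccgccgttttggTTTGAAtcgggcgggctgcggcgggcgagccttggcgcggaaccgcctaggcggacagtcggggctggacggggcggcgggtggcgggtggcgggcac
Cenpf: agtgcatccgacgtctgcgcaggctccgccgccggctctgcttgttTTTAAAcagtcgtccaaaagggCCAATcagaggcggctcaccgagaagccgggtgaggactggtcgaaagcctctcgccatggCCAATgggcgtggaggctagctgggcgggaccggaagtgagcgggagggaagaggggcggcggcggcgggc
Cdc25b: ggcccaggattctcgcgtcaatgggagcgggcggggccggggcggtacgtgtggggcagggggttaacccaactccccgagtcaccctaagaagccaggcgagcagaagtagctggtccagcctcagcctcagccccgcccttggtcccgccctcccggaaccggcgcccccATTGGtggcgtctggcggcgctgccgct
Among the genes shown, both directions included genes with both elements in this window. Plk1 has 2 copies of TTTAAA and a CCAAT box 14 bases before the start, and Ckap2 has 1 of each. Mki67 and Cenpf, which rose, have CHR letters and 3 and 2 CCAAT boxes. Cdc25b has a CCAAT box and no CHR letters here, and the CHR letters of Bub1b lie after its start. The genes shown do not stand for all members. In the full searched window both elements were in 21 of the 24 lower and 2 of the 6 higher members with a promoter. Pttg1, which had the largest rise, and Melk have neither in that window. The RefSeq start of Pttg1 lay 270 bases inside the deposited gene. Its window therefore held no base before the deposited start, and the sequence there was not searched.

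**Figure D4:**
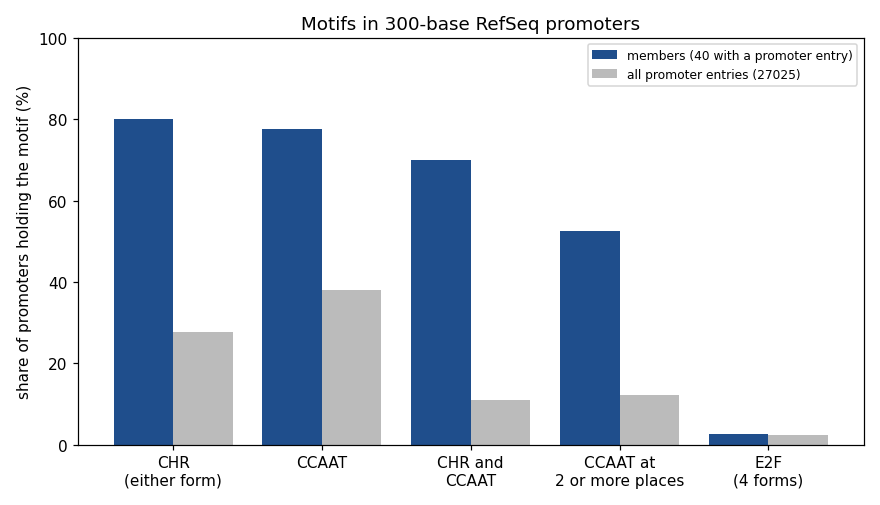
Share of promoters (y axis, percent) that hold each searched motif (x axis), for the 40 members with a promoter entry (blue) and for all 27025 entries (grey). The members' bars stand at 80.0% for CHR and 77.5% for CCAAT against 27.8% and 37.9%, and the E2F bars are near each other.

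Set against the CMA response in WT, 21 of the 28 members with both elements were lower (75.0%) and 2 higher (7.14%), with a median log2 fold change of -0.26. Among the 738 tested genes with both elements, 45.1% were lower and 28.7% higher, with a median of -0.13. Of the 12 other members with a promoter, the 5 with neither element had 2 lower and 2 higher, against 38.8% and 34.8% of the 4839 tested genes with neither. The 8 members without CHR letters (Bub1, Cdc25b, Mad2l1, Melk, Nek2, Nuf2, Nusap1 and Pttg1) had 3 lower and 3 higher (37.5% each), against 38.8% and 34.8% of the 7892 tested genes without them, so these shares were near the background. These are descriptions of letters in a fixed window around the first listed RefSeq start of each gene, and were given no test. For 8 of the 40 members that start lay more than 50 bases from the deposited one. Counted in bases inside the deposited gene, it was at 270 for Pttg1 and -169 for Mad2l1, both placed without CHR letters. It was at 629 for Cdca3, 2394 for Cdca8 and 3867 for Kif2c, all placed with them. The split by CMA response was not repeated without such members.

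In STINGgt/gt T cells none of the 48 genes was called with CMA in either direction (edgeR; DESeq2 also gave 0), where 0.398% of all genes were higher and 0.92% lower. The log2 fold changes lay between -0.20 (Cdc25c) and 0.10 (Nek2), with a median of -0.02 and SEs of 0.037 to 0.089. At an unadjusted p under 0.05 there were 4, namely Cdc25c, Spc25, Ube2c and Melk, all with negative values. That is 8.33% of the members, against 13% of all genes. Cdc25c, the lowest expressed of the 48 per kilobase, was at 17.1, 17.7 and 17.1 CPM with DMSO here, and at 14.9, 15.5 and 14.7 after CMA. These groups did not overlap, and in the fit over all groups the adjusted p was 0.13 (edgeR). When only the 2 STINGgt/gt groups were fitted, Cdc25c was called lower. In WT it read 15.5, 16.8 and 16.8 CPM with DMSO and 12.8, 11.4 and 12.4 with CMA, again without overlap. Over the 48 members, the STINGgt/gt groups were apart for 10, with 5 above and 5 below, where 11.8% and 11.3% of all genes did so.

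The difference between the genotypes in the CMA effect was tested directly, as an interaction. It was called for 31 of the 48 genes, more negative in WT for 24 and more positive for 7, against 31.6% and 27.2% of all genes. The largest negative differences were those of Ckap2 (-0.66, SE 0.075, adjusted p = 1.25e-06), Bub1b (-0.54, SE 0.071, adjusted p = 7.17e-06), Ccnb1 (-0.50, SE 0.062, adjusted p = 4.14e-06) and Mad2l1 (-0.49, SE 0.081, adjusted p = 7.04e-05), on the log2 scale. Pttg1 (0.82, SE 0.088, adjusted p = 7.64e-07) had the largest positive one, ahead of Cenpf (0.36, adjusted p = 0.0206), Mki67 (0.35, adjusted p = 0.00826) and Melk (0.30, adjusted p = 0.000179). Cdc25b, Foxm1 and Nusap1 were the remaining 3 with a positive difference. The comparison uses the same control libraries as the CMA comparisons within each genotype, so it is not a separate observation. Of the 37 genes called with CMA in WT, Ube2c, Fbxo5, Cdca3, Cenpa, Ndc80, Spc25 and Ect2 had no called difference, with adjusted p from 0.0562 to 0.819. In 20 alternative analyses the difference was called for Ndc80 in 8, Ect2 in 5, Cenpa in 4 and Spc25 in 3. Nusap1 was called for the difference alone, at an adjusted p of 0.0485, and lost that call in 9 of the 20, while Cdc25c lost it in 14 and Ttk in 11.

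The genotypes were also compared without the agonist. With DMSO, 21 of the 48 genes were lower in WT than in STINGgt/gt and 1, Cdc25b, was higher, against 19.8% and 22.9% of all genes (edgeR). The median log2 fold change was -0.13, against -0.0018 over all genes. Mki67 (-0.34, adjusted p = 0.00145), Cenpe (-0.29, adjusted p = 0.0157), Spc24 (-0.28, adjusted p = 0.000382), Kif23 (-0.28, adjusted p = 0.000416) and Kif20a (-0.27, adjusted p = 0.000121) had the largest called falls in WT, and Cdc25b a rise of 0.34 (SE 0.042, adjusted p = 6.82e-06). The value of Cenpe ran from -0.45 (without WT DMSO replicate 3) to -0.18 over the alternatives, and its call was lost without WT DMSO replicate 1 (adjusted p = 0.0625) and when only these 2 groups were fitted. Of the 22 calls, 6 (Aurkb, Cenpa, Cenpe, Cenpf, Spc25 and Ttk) were lost in some alternative. Kif20a, a motor of the central spindle, read 100, 102 and 110 CPM in WT DMSO and 126, 126 and 126 in STINGgt/gt DMSO, without overlap. Kif23 read 63.5, 59.8 and 68.3 CPM in WT DMSO against 76.9, 78.9 and 76.7, also apart. The B cell, myeloid and CD8 and NK cell markers were higher in WT with DMSO for 6 of 6, 6 of 6 and 5 of 6 genes.

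The number of genes lower in WT with DMSO depended on WT DMSO replicate 3, which was the highest of its 3 libraries for 35 of the 48 genes, while 37.0% of all genes were highest in it. Without it, 32 genes were lower in WT with DMSO, 20 of them shared with the 21 of the full set. Without WT DMSO replicate 1 the number was 15. Over all genes, 2740 of 13811 were lower in the full set, 3130 of 14009 without replicate 3 and 2409 of 14023 without replicate 1. The displacement was larger for members with long exons. The median deviation of replicate 3 from the WT DMSO mean was 0.098 on the log2 scale for the longer 24 members (4516 to 15433 exon bases), and 21 of these were highest in it. For the shorter 24 (1531 to 4363 bases) it was 0.033, with 14 highest in it. Over all genes, the median deviation of replicate 3 was -0.050, -0.030, 0.0024 and 0.063 from the quartile of genes with the shortest exons to that with the longest. The 5, 13, 18 and 12 members in these quartiles had medians of 0.013, 0.012, 0.084 and 0.105, above those of all genes in each. The median log2 fold change of WT against STINGgt/gt with DMSO was 0.035, 0.021, -0.013 and -0.048 over all genes of the same quartiles and -0.062, -0.063, -0.125 and -0.218 over the members, which were lower in each. The CMA comparison in WT was less sensitive to this library, with 28 genes lower and 10 higher without it, where 5099 and 4700 of 14009 genes were. Its median log2 fold change also varied with exon length. Over all genes it was -0.106, -0.0975, -0.022 and 0.0515 in the same quartiles, and over the members -0.311, -0.115, -0.266 and -0.0239.

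**Figure D5:**
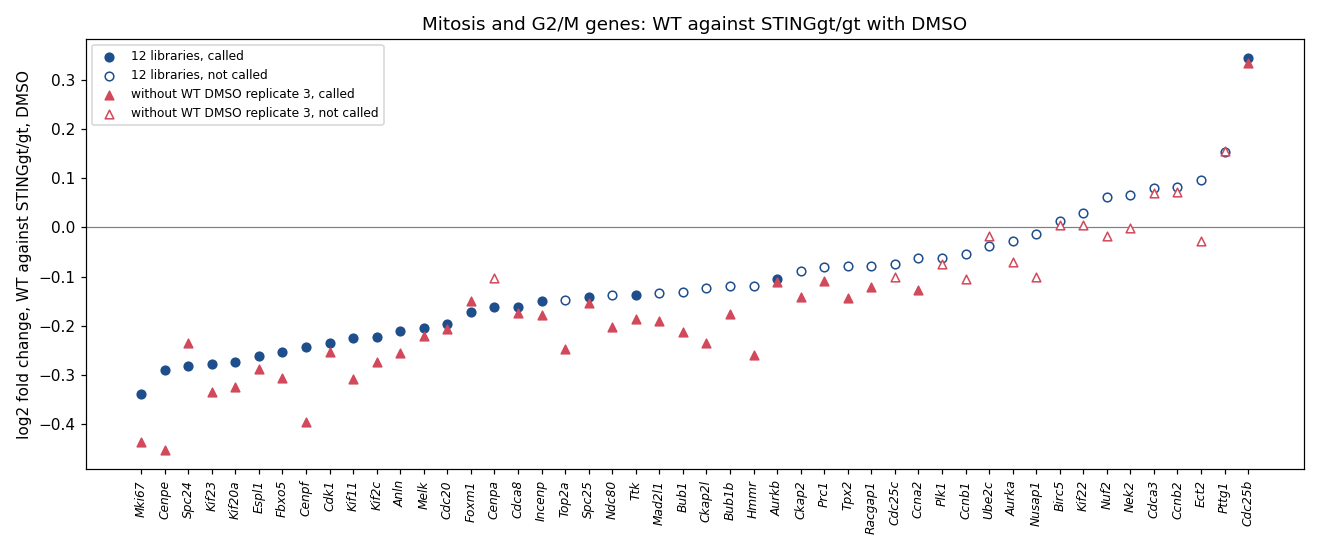
The log2 fold change of WT against STINGgt/gt with DMSO (y axis) for the 48 genes, sorted by value (x axis), with all 12 libraries (circles) and without WT DMSO replicate 3 (triangles), filled where the adjusted p was under 0.05. Without that library most values shift downwards, and 32 genes in place of 21 are called lower in WT.

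With CMA, every WT library was below every STINGgt/gt library for 34 members and above for 5 (Cdc25b, Melk, Birc5, Pttg1 and Nusap1), with overlap for 9. Over all genes 39.2% were below and 39.7% above. The 9 with overlap included Mki67, Foxm1, Cenpf and Ndc80, which had risen with CMA in WT.

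Genes outside the 48 were read from lists beside them. Among 63 further mitosis genes (condensin subunits, shugoshins, other kinesins and kinetochore proteins), 22 were lower (34.9%) and 15 higher (23.8%) with CMA in WT, with a median log2 fold change of -0.06. All tested genes had 37.4% lower, 33.0% higher and a median of -0.04, so the share of lower genes was near the background. The kinetochore gene Cenpm, at 9.93 ± 0.474 CPM (SD, n = 3) in WT DMSO and 19.7 ± 1.71 in WT CMA, rose by 0.99 on the log2 scale (edgeR, adjusted p = 4.03e-09). The checkpoint gene Bub3 fell by 0.50 (adjusted p = 1.4e-08) and Gtse1, a microtubule-associated protein expressed in G2, rose by 0.49 (adjusted p = 2.39e-08). Among these 63 genes, 28 were lower (44.4%) and 0 higher in WT than in STINGgt/gt with DMSO, against 19.8% and 22.9% of all genes (edgeR; 30 had an unadjusted p under 0.05 in either direction, 47.6% against 49.9%). The 63 summed to 4752, 4589 and 5184 CPM in WT DMSO replicates 1, 2 and 3 and to 5353 to 5397 in STINGgt/gt DMSO, so WT DMSO replicate 3 stood apart. None of the 63 was called with CMA in STINGgt/gt, where 2 (3.17%) had an unadjusted p under 0.05, against 13% of all genes.

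Of 27 regulators of G2/M transcription and entry, 15 were higher (55.6%, against 33.0% of all genes) and 7 lower (25.9%, against 37.4%) with CMA in WT, with a median of 0.20. Gadd45b, a stress-induced inhibitor of Cdk1, had the smallest p and went from 16.3 ± 1.29 CPM (SD, n = 3) to 101 ± 3.54 (log2 fold change 2.64, SE 0.063, adjusted p = 2.68e-15, edgeR). Nfyb, a subunit of the CCAAT-binding factor NF-Y, fell from 156 ± 1.61 to 68.5 ± 4.33 CPM (log2 fold change -1.18, SE 0.048, adjusted p = 1.53e-12), while its partners Nfya (0.45) and Nfyc (0.21) rose. E2f4, a member of the DREAM complex, fell by 0.71 on the log2 scale (adjusted p = 2.84e-10) and so did its dimer partner Tfdp1, by 0.63. The MuvB subunits Lin9, Lin37, Lin52 and Lin54 rose by 0.22 to 0.53, and B-Myb (Mybl2) by 0.42. In STINGgt/gt no gene of this list was called (edgeR; 4 had an unadjusted p under 0.05, 14.8% against 13% of all genes). Nfya, Nfyc, Tfdp1, Mybl2 and the Lin genes were named after their values were seen, as partners of the genes with the smallest p.

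Of 47 DNA replication genes, which act in S phase, 20 were lower (42.6%, against 37.4% of all genes) and 8 higher (17.0%, against 33.0%) with CMA in WT, with a median of -0.07. Cyclin E1 (Ccne1), which drives entry into S phase, rose by 1.14 (SE 0.041, adjusted p = 3.43e-13). The dUTPase Dut fell by 1.00 (SE 0.053, adjusted p = 5.25e-11) and the DNA polymerase subunit Pold2 by 0.71 (SE 0.054, adjusted p = 5.65e-09, edgeR). With DMSO, 30 of the 47 were lower in WT than in STINGgt/gt (63.8%, against 19.8% of all genes) and 1 was higher (2.13%, against 22.9%). The 47 summed to 6498, 6538 and 6931 CPM in WT DMSO replicates 1, 2 and 3 and to 7422 to 7469 in STINGgt/gt DMSO. Replicate 3 of WT DMSO was thus the nearest to STINGgt/gt here too. In STINGgt/gt, 1 was higher with CMA (2.13%, against 0.398% of all genes) and 0 were lower (against 0.92%).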

How the data were processed

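RNA of 12 libraries (4 groups of 3) was sequenced from a stranded mRNA kit. The authors deposited whole-number counts per gene ID (38924 IDs, Ensembl) and a log2 expression table of 11921 genes, which equals log2(count + 0.5) plus 1 factor per library. The submitters' processing notes name cutadapt 1.3, STAR 2.4.0f1, HTSeq 0.6.1, RSEM 1.2.16 and GRCm38. Whether the counting used strand is not given in the sources used here. Non-unique alignments made up 27.8% to 30.3% of entries, reads outside genes 4.86% to 7.16% and ambiguous reads 0.594% to 0.635%, all kept out of library sizes. The first 2 shares differed between WT DMSO and WT CMA.

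The 48 members were matched by symbol, and their positions overlap the same gene in GENCODE M21, whose exons gave the lengths. Exons of 15 members overlap another gene, 2 of them on the same strand. Counts were tested with edgeR 4.0.16 in R 4.3.3 (TMM scaling, filterByExpr by group, glmQLFit and glmQLFTest, one model of all 4 groups, no block), with Benjamini-Hochberg adjustment over 13811 genes and a threshold of 0.05. CPM values are TMM-scaled. Each SE was derived from the test, as the absolute log2 fold change divided by the square root of the quasi-likelihood F statistic. The code was tested on simulated data. Alternatives were library-size scaling, DESeq2 1.42.0, limma 3.58.1 (voom, and on the deposited log2 table), dropping the filter, a minimum of 10 counts in each library, a fit of only the compared groups, a replicate block and each library left out.

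The members, role groups, lists and markers were chosen with earlier results of these data known. Values in every library are given for the largest and smallest change with CMA in WT per role group and for members called against the majority. From the lists beside them, the 3 genes with the smallest p are named, with exceptions stated. The study calls replicates biological without giving their source. Depth was 27414450 to 43784910 gene reads per library, and counts of same-group libraries differed by more than sampling noise (chi-square per degree of freedom 2.59 to 29).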

Additional observations from a re-analysis of the deposited data

Results flagged for a closer look

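For 31 of the 48 genes, the effect of CMA in WT was not the same as in STINGgt/gt by the interaction test of the edgeR model over all genes (adjusted p under 0.05). The effect was more negative in WT for 24 of the 48 and more positive for 7, against 31.6% and 27.2% of all genes. Each is listed as the log2 effect in WT minus that in STINGgt/gt. In the Cdk1 module the differences were -0.26 for Ccna2, -0.50 for Ccnb1, -0.23 for Ccnb2, -0.32 for Cdk1 and -0.22 for Cdc25c. The other kinases had -0.27 for Aurka, -0.41 for Plk1 and -0.32 for Nek2. The passenger complex genes had -0.37 for Aurkb, -0.28 for Incenp and -0.32 for Cdca8, and the checkpoint genes -0.54 for Bub1b, -0.20 for Ttk and -0.49 for Mad2l1. Around the anaphase-promoting complex the values were -0.42 for Cdc20 and -0.19 for Espl1, and at the kinetochore -0.32 for Nuf2. Among spindle genes they were -0.27 for Kif11, -0.31 for Kif22, -0.26 for Tpx2, -0.47 for Hmmr and -0.66 for Ckap2. In cytokinesis Kif20a had -0.23 and Racgap1 -0.35. The positive differences were 0.21 for Cdc25b, 0.30 for Melk, 0.82 for Pttg1, 0.36 for Cenpf, 0.22 for Nusap1, 0.35 for Mki67 and 0.21 for Foxm1. Of 20 alternative analyses, the call was lost for Cdc25c in 14, for Ttk in 11, for Nusap1 in 9, for Espl1 in 3 and for Cenpf and Kif11 in 1 each. The other 25 of the 31 kept theirs in all alternatives run.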

How the results depend on the processing

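Counts of members past the threshold stayed within 1.5 times their main values in the alternatives run, with these exceptions. In STINGgt/gt, 1 gene (Cdc25c) was lower with CMA when only the 2 groups compared were fitted, against 0. With DMSO, genes higher in WT than in STINGgt/gt were 1 to 2 with 1 library left out, and 2 without WT DMSO replicate 2. Genes lower in WT were 15 to 32, and 32 without WT DMSO replicate 3. The cause was not tested. With CMA in WT, leaving out 1 library gave 28 to 33 lower and 7 to 10 higher, and the difference of the CMA effect gave 22 to 26 more negative and 5 to 9 more positive. Of the 37 genes called with CMA in WT, 32 kept the call in every alternative run, and Ube2c, Fbxo5, Espl1, Cdca3 and Ect2 lost it at least once. Of the 11 not called there, 8 were called at least once (Cenpe, Nusap1 and Top2a in 5 of 21, Prc1 in 4, Spc24 in 3, Bub1 in 2, Ckap2l and Kif23 in 1), and Birc5, Kif2c and Anln in none. For the difference of the CMA effect 6 of 31 calls were lost and 7 gained at least once, and for WT against STINGgt/gt with DMSO 6 of 22 and 13. No called value changed sign.

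Libraries that share a replicate number were not treated as pairs, since their deviations from the group means correlated at 0.00195, 0.104 and 0.132 (WT) and 0.0634, 0.0597 and 0.0585 (STINGgt/gt), not all over 0.1. DMSO and CMA libraries of unlike number correlated at -0.15 to 0.056 (WT) and -0.061 to 0.00346 (STINGgt/gt). Sample names share a first digit within each same-number pair except STINGgt/gt replicate 2, and the labels do not say what that digit means. Pairing therefore remains possible. A fit with the replicate block gave 31 genes lower and 9 higher with CMA in WT, 0 called in STINGgt/gt, and 25 differences more negative and 8 more positive. With the block by library name these were 30, 9, 0, 22 and 8. Under both blocks Cenpe, Nusap1 and Top2a gained the call with CMA in WT, and for the difference Ndc80 gained it and Cdc25c lost it. Cenpa and Ect2 gained the call of the difference under the replicate block alone, and Fbxo5 (CMA in WT) and Ttk (difference) lost theirs under the block by library name alone. WT and STINGgt/gt share no pairing, so the genotypes were not compared with a block.

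With 3 libraries a group and SEs of 0.038 to 0.090 on the log2 scale in WT, the smallest called change with CMA in WT that was kept in every alternative run was 0.17 (Cdc25b).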

Other observations

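Single libraries leaned one way across the mitotic genes in other groups as well. WT CMA replicate 2 was the lowest of its group for 34 of the 48 genes, where 36.9% of all genes were lowest in it, and STINGgt/gt CMA replicate 1 was the lowest of its group for 30, where 36.8% of all genes were.

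In STINGgt/gt T cells the 47 DNA replication genes were mostly positive with CMA while the mitotic genes were not. The log2 fold change was positive for 45 of the 47, with a median of 0.05, and for 16 of the 48 mitotic genes, with a median of -0.02, where 6982 of the 13811 tested genes were positive. Only 1 replication gene and 0 mitotic genes were called (edgeR), with 10 (21.3%) and 4 (8.33%) at an unadjusted p under 0.05, against 13% of all genes. The 48 mitotic genes summed to 7449, 7925 and 7801 CPM in STINGgt/gt CMA replicates 1, 2 and 3 and to 7756 to 7871 with DMSO, so replicate 1 alone lay below the DMSO range. The difference between the lists was not tested.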
